A study of Mus musculus with 4 samples.

Results

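The nuclear genes of oxidative phosphorylation were examined in 4 sorted heart populations labelled as macrophages, each measured once. Macrophage markers were low in 1 of them, titled CD74, as given below. Members were all genes whose symbol in the array's annotation begins with Nduf (complex I), Uqcr (complex III), Cox4i, Cox5, Cox6, Cox7 or Cox8 (complex IV) or Atp5 (complex V), together with Sdha, Sdhb, Sdhc and Sdhd (complex II). This gave 93 of the 19505 genes on the array, each with 1 probe set. They were 46 genes of complex I, of which 38 are named as subunits and 8 as assembly factors (Ndufaf), 4 of complex II, 8 of complex III, 18 of complex IV and 17 of complex V. Symbols are those of the array and some have since been renamed.

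The animals were C57BL/6N mice of 15 to 16 weeks, described as wild type and as Ctrl-TAC, whose hearts had been put under pressure load by transverse aortic constriction (TAC), a surgical narrowing of the aorta. The macrophages of 6 hearts were pooled and sorted into populations titled Ccrl2, CD74, CD163 and Trem2, and each population gave 1 Clariom S mouse array. All 4 share the surgery, and no unoperated heart was analysed here. The labels place sampling at 8 weeks after TAC in one field and at 1 week in another, give CD9 in the source name of the library titled CD74, and list Lyve1 among the sorted populations instead of CD163. Libraries are called by their titles. With 1 array per population there was no replicate, so no test was run and no error could be given.

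Oxidative phosphorylation couples the oxidation of NADH and succinate to the making of ATP at the inner mitochondrial membrane. Complex I takes electrons from NADH and complex II from succinate, complex III passes them to cytochrome c, complex IV hands them to oxygen, and complex V, the ATP synthase, uses the proton gradient that complexes I, III and IV build. Macrophages rely on this route to differing degrees: in cell culture, inflammatory activation lowers it in favour of glycolysis and alternative activation by interleukin-4 keeps it high. Cardiomyocytes hold far more mitochondria than macrophages do and use muscle forms of some complex IV subunits.

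Values are the deposited log2 signals, so that 1 unit is a 2-fold difference, and levels of different genes are not compared because their probes differ. The background ceiling of a library is the 95th percentile of its values for 1500 chemosensory receptor and keratin-associated protein genes. It was 5.67 (Ccrl2), 6.53 (CD74), 6.28 (CD163) and 5.51 (Trem2). The genes above it numbered 7454 (Ccrl2), 3621 (CD74), 4984 (CD163) and 8144 (Trem2). A gene was called higher in one of a pair of libraries when it exceeded background there and was at least 2-fold brighter than in the other, with any value under background raised to the ceiling first. Folds computed against a raised value are given as lower bounds. The arrays differed as wholes: over all genes above a ceiling in either library, the median of Ccrl2 minus CD74 was 0.96, of Ccrl2 minus CD163 0.69, of Ccrl2 minus Trem2 -0.08, of CD74 minus CD163 -0.47, of CD74 minus Trem2 -1.01 and of CD163 minus Trem2 -0.69. Each count of members is therefore read against the share of all genes called in the same way, and quantile normalization of the 4 columns is given where it changes the reading. Values of single genes, and the order of libraries in them, are on the deposited scale unless quantile normalization is named.

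The marker transcripts of macrophages were present in all 4 libraries but low in CD74. The 11 macrophage markers measured, among them Csf1r and Adgre1, had a median of 15.85 (Ccrl2), 8.58 (CD74), 15.51 (CD163) and 15.01 (Trem2), and 9 of the 11 lay above the ceiling in CD74 against all 11 elsewhere. Of 10 T and NK cell markers, the number above the ceiling was 0 (Ccrl2), 9 (CD74), 1 (CD163) and 7 (Trem2). Of 8 neutrophil markers, it was 4 (Ccrl2), 5 (CD74), 1 (CD163) and 7 (Trem2). The log2 of the summed signals of the 15 cardiomyocyte markers, which include Myh6, Myl2 and Mb, was 13.82 (Ccrl2), 11.93 (CD74), 12.63 (CD163) and 14.52 (Trem2). Of these 15, the number above the ceiling was 14 (Ccrl2), 6 (CD74), 12 (CD163) and 14 (Trem2). The same sums were 12.94 (Ccrl2), 8.92 (CD74), 8.73 (CD163) and 12.83 (Trem2) for 5 fibroblast markers, and 15.01 (Ccrl2), 11.44 (CD74), 12.46 (CD163) and 17.13 (Trem2) for 6 endothelial markers. The endothelial sum was nearly that of Fabp4 alone, at 14.88 (Ccrl2), 11.27 (CD74), 12.32 (CD163) and 17.09 (Trem2). Kdr and Emcn were higher in Ccrl2 than in Trem2, and the endothelial medians were 8.52 (Ccrl2) and 8.84 (Trem2). Dcn made up most of the fibroblast sum in Ccrl2 (12.65) and Trem2 (12.67). These are bulk RNA values, in which a difference in the share of a cell type and a difference in RNA per cell cannot be told apart, and the part of other cells in the differences below was not tested.

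Of the 93 members, 77 lay above the background ceiling in at least 1 library and 30 in all 4. In Ccrl2 69 members (74.2%) passed the ceiling, against 38.2% of all 19505 genes. In CD74 35 members (37.6%) did, against 18.6% of all genes, and in CD163 50 (53.8%), against 25.6%. In Trem2 77 (82.8%) passed it, against 41.8%. The 16 members below every ceiling were Ndufa7, Ndufa11, Ndufb6, Ndufb10, Ndufv3 and Ndufa4l2 of complex I, the assembly factors Ndufaf1, Ndufaf3, Ndufaf6 and Ndufaf8, Uqcr11 of complex III, Cox4i2, Cox6b2 and Cox8c of complex IV, and Atp5e and Atp5k of complex V. Some of these encode subunits that every working complex holds, so a value below the ceiling says only that the probe set did not rise over background. Every measured member was above the ceiling in Trem2, and the 7 that passed in 1 library alone passed there. None of those 7 was called in any pair.

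**Figure D1:**
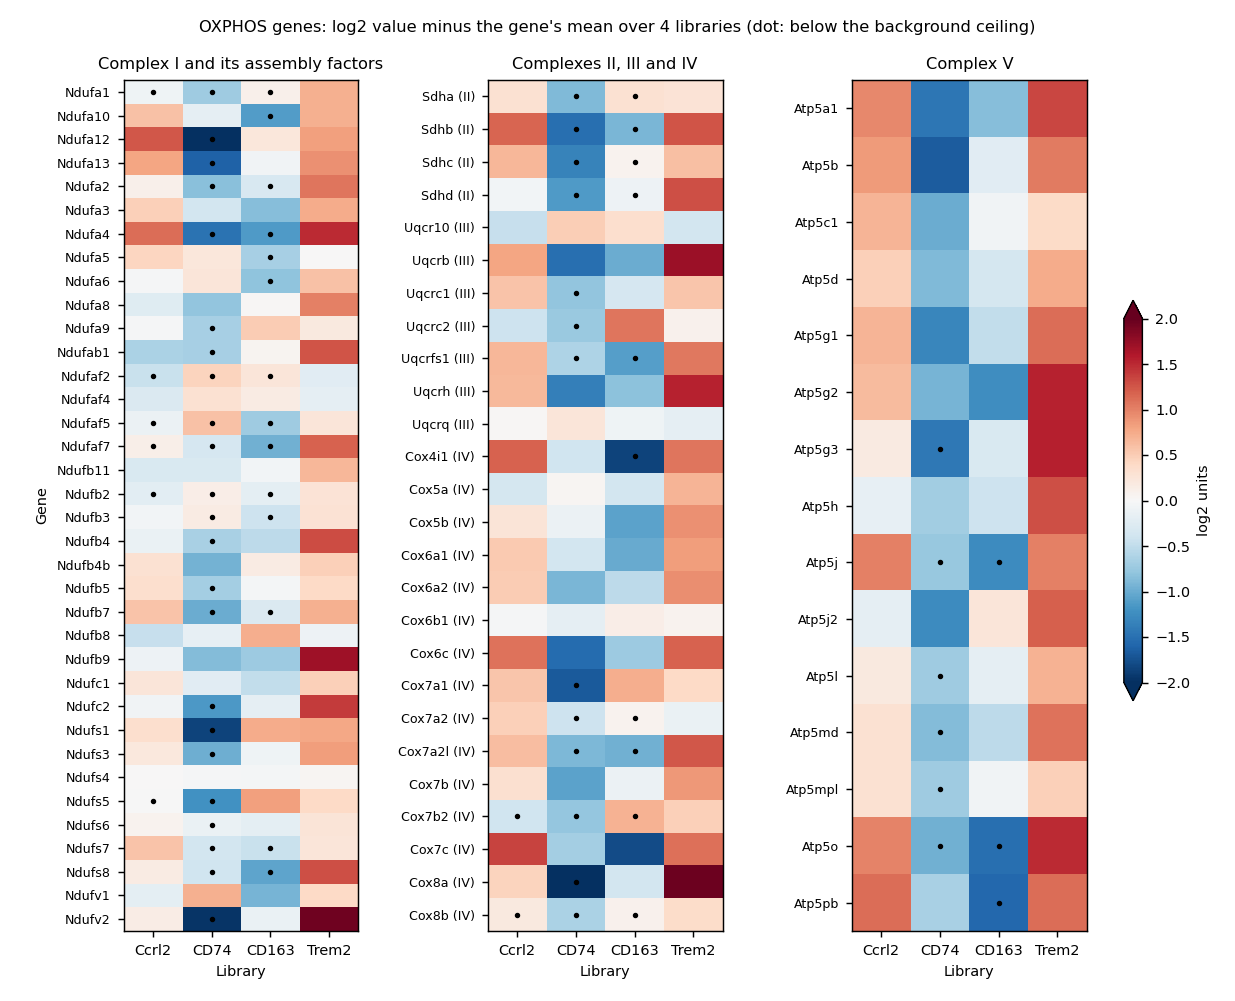
Difference of each gene's log2 value from its own mean over the 4 libraries, for the 77 members above the background ceiling in at least 1 library, with libraries in columns and genes in rows (the complex in brackets where a panel holds several). A black dot marks a value below that library's ceiling, and colours stop at 2 log2 units. On these deposited values Trem2 is the highest library for 52 of the 77 and CD74 the lowest for 46. After quantile normalization the counts were 29 and 34. Only 35 of the 77 pass the ceiling in CD74, so many of its lowest values are background.

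Most members had their highest value in the Trem2 library and their lowest in CD74 on the deposited scale. Of the 77 measured, 52 (67.5%) were highest in Trem2, against 38.5% of the 9346 genes measured in any library. Ccrl2 was highest for 9 members against 31.5% of all genes, CD163 for 7 against 14.8% and CD74 for 6 against 14.0%, and 3 members had a tie. Trem2 held the highest value for 26 of 36 measured members of complex I, 2 of 4 of complex II, 3 of 7 of complex III, 9 of 15 of complex IV and 12 of 15 of complex V. After quantile normalization Trem2 was highest for 29 of the 77 (37.7%), against 24.0% of all genes, and CD74 for 22 (28.6%) against 28.0%, so the lead of Trem2 was smaller on that scale. The lowest value lay in Trem2 for 1 member on the deposited scale and for 4 after quantile normalization. CD74 held it for 46 of the 77 on the deposited scale and for 34 after quantile normalization, which is no longer most. Only 35 of the 77 were above the ceiling in CD74, so many of these lowest values lay under background. The share of all genes lowest in CD74 was not computed.

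The comparison of Ccrl2 with Trem2 had the smallest shift of the arrays as wholes, and in it members tended to be lower in Ccrl2. Of 77 members, 13 (16.9%) were called lower in Ccrl2 than in Trem2, against 7.92% of 8773 genes, and 0 were called higher, against 5.43% of all genes. The median difference was -0.37 (Ccrl2 minus Trem2), against -0.08 over all genes, with 63 members below 0, 12 above and a range from -1.90 to 0.61. After quantile normalization 9 members (11.7%) were called lower, all of them among the 13, against 4.23% of all genes, and 0 higher against 3.83%, with a median of -0.23 against 0 over all genes. The differences were modest in size, since none of the 13 reached 4-fold.

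The 13 genes came from 4 of the 5 complexes. Ndufab1, which encodes both a complex I subunit and the mitochondrial acyl carrier protein, had 5.95 in Ccrl2 against 7.85 in Trem2, a 3.73-fold lower level. Ndufb9, an accessory subunit of the membrane arm, had 8.71 in Ccrl2 against 10.51 in Trem2 (3.48-fold lower), and Ndufv2, an iron-sulphur subunit of the NADH-oxidising end, had 6.76 in Ccrl2 against 8.55 in Trem2 (3.46-fold lower). These were the widest gaps of complex I. Cox8a, the widely expressed form of the smallest complex IV subunit, had 8.95 in Ccrl2 and 10.46 in Trem2 (2.85-fold lower in Ccrl2), and Atp5h, subunit d of the ATP synthase stalk, had 11.74 in Ccrl2 and 13.20 in Trem2 (2.75-fold lower).

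The other 8 were lower in Ccrl2 by 2.06-fold (Cox5a) to 2.79-fold (Ndufc2). In complex I they were Ndufc2, with 7.52 in Ccrl2 against 9.0 in Trem2, and Ndufb4, Ndufa8 and Ndufs8. In complex II, Sdhd had 5.79 in Ccrl2 against 7.14 in Trem2. Cox5a of complex IV had 6.87 in Ccrl2 against 7.91 in Trem2. Atp5g3 and Atp5j2 of complex V completed the set, and Atp5j2 had 8.25 in Ccrl2 against 9.62 in Trem2. Of the 13, Ndufa8, Ndufs8, Sdhd and Cox5a were no longer called after quantile normalization, with differences of -0.93, -0.79, -0.98 and -0.72. At the other end, Cox7a2, a complex IV subunit, had the highest excess in Ccrl2, with 6.52 against 5.91 in Trem2, under 2-fold. The summed level of cardiomyocyte markers also leaned towards Trem2, with 13.82 in Ccrl2 and 14.52 in Trem2 on the log2 scale. Single markers were split: Myh6 (8.01 in Ccrl2 against 6.86 in Trem2), Actc1, Ryr2, Myl3 and Ckm were higher in Ccrl2. The summed level of neutrophil markers leaned towards Trem2 more strongly, with 9.92 in Ccrl2 and 17.15 in Trem2. The part of heart muscle and neutrophil RNA in the members' differences was not tested.

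**Figure D2:**
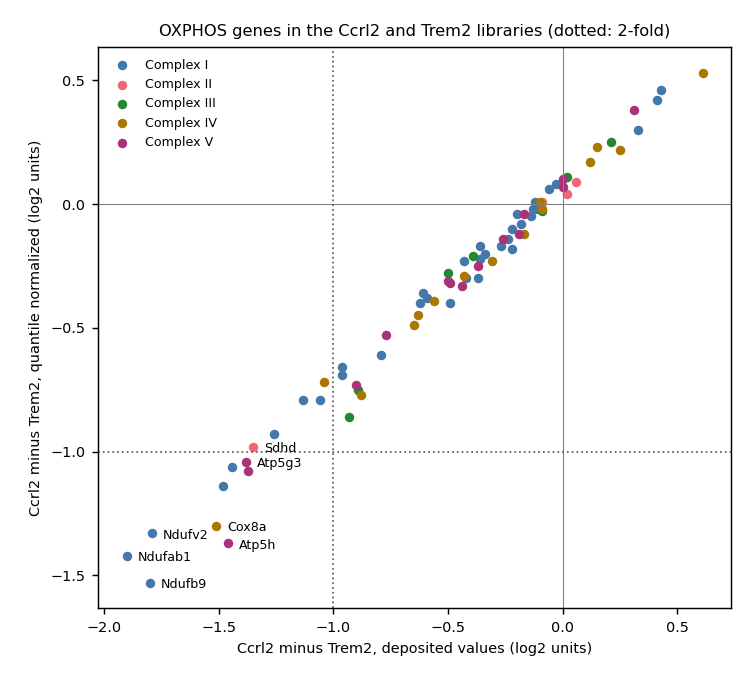
Ccrl2 minus Trem2 difference of each of the 77 members above the ceiling in either library, on the deposited log2 values (horizontal axis) and after quantile normalization of the 4 columns (vertical axis), coloured by complex. The points left of the vertical dotted line are the 13 members called lower in Ccrl2 on the deposited scale and Ndufaf7 (-1.06). Ndufaf7 was not called, because its Ccrl2 value was under background and was raised to the ceiling. The 9 under the horizontal line are those called after quantile normalization. Ndufab1, Ndufb9 and Ndufv2 lie farthest to the left.

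Set against all 3 other libraries at once, 9 members (11.7%) were called higher in Trem2 than in each of the rest, against 3.85% of 9346 genes. They were Ndufab1, Ndufb4, Ndufb9, Ndufc2, Ndufs8, Ndufv2, Cox8a, Atp5g3 and Atp5h. Ndufb9 had 10.51 in Trem2 against 8.71 in Ccrl2, 7.95 in CD74 and 8.08 in CD163. Ndufc2, a membrane arm subunit, had 9.0 in Trem2 against 7.52 in Ccrl2, 6.44 in CD74, below the ceiling, and 7.42 in CD163. Each of the 9 stood above its Ccrl2 value by 2.19-fold (Ndufs8) to 3.73-fold (Ndufab1). The count was 10 without the CD74 library, 11 without CD163 and 29 without Ccrl2, against 5.34%, 4.37% and 20.3% of all genes. After quantile normalization only Cox8a stayed at least 2-fold above each other library, against 0.792% of all genes.

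In the same comparison 0 members were called lower in Trem2 than in each other library, against 0.128% of all genes. Ccrl2 held 0 members higher and 0 lower, against 2.61% and 0.118% of all genes, and without the Trem2 library 16 of 70 were higher in Ccrl2 than in both CD74 and CD163, against 20.1%. CD163 held 0 higher, against 0.835%, and 1 lower, against 3.53%. That gene was Cox7c, a small subunit of complex IV, with 10.74 in CD163 against 13.89 in Ccrl2, 11.86 in CD74 and 13.64 in Trem2. CD74 held 0 higher, against 1.78%, and 5 lower (6.49%), against 10.2%: Atp5b, Atp5j2, Cox8a, Ndufa12 and Ndufb4b. That count rested on the CD163 library, since without it 24 of 77 were lower in CD74 than in both Ccrl2 and Trem2, against 23.7% of all genes. With no filter on dim values 14 of 93 were lower in CD74 than in each other library, against 8.78%.

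Nuclear respiratory genes are known to be controlled in part by the factors NRF1, GABPA (of the ETS family, also called NRF-2) and YY1. Promoter sequences are shown for 4 genes from these comparisons, all of which hold a match to a core searched for here. They are not typical in this, since most member promoters held no match, as given below. Ndufab1 and Ndufv2, with wider gaps between Ccrl2 and Trem2 and no match, are not shown. Windows of 250 bases before to 50 after the start, from RefSeq on GRCm38.p6, were found for 77 of the 93 members and searched on both strands for GCATGCGC (NRF1 core), AAGATGGC (YY1 core) and CCGGAAGT (ETS core), of which the NRF1 core can overlap its own reverse complement. Cox8a, at chr19:7217567-7217866 on the minus strand, and Atp5h, at chr11:115419870-115420169 on the minus strand, were both called higher in Trem2. Atp5j2, at chr5:145191492-145191791 on the minus strand, was called lower in CD74, and Sdhb, at chr4:140961021-140961320 on the plus strand, was the complex II gene with the largest difference between libraries. Capitals mark a match, on the given strand for YY1 in Atp5j2 and NRF1 in Sdhb, and on the opposite strand for ETS in Cox8a, which has 2, and in Atp5h.
Cox8a: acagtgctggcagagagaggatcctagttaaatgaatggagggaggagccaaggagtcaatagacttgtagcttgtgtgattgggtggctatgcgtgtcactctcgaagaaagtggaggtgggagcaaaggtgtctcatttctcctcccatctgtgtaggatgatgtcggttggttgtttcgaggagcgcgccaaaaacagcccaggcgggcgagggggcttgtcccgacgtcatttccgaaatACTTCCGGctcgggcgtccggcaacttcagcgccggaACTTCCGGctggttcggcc
Atp5h: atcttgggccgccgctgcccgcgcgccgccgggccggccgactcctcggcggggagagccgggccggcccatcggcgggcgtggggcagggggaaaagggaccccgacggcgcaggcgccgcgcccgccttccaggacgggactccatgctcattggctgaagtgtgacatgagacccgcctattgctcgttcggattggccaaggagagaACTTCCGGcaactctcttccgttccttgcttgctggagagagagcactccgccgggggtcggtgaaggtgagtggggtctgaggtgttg
Atp5j2: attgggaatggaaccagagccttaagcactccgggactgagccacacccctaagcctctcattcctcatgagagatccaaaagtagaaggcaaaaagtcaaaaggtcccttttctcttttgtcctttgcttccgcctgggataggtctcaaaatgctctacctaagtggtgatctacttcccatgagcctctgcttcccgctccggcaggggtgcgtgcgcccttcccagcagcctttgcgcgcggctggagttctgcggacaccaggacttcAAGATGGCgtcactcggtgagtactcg
Sdhb: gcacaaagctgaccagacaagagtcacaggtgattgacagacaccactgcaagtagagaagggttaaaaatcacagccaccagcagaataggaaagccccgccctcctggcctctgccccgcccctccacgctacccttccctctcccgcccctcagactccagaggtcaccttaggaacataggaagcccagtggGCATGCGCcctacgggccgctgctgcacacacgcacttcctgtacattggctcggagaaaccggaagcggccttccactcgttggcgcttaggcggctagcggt

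The NRF1 core was found in 12 of the 77 member promoters (15.6%), against 3.05% of 27025 genes with a window and 5.31% of the 7611 genes that were also measured here. The YY1 core was found in 11 (14.3%), against 3.19% and 4.93%, and the ETS core in 5 (6.49%), against 4.31% and 8.51%. The 77 members with a window are not the same as the 77 measured members. Matches in genes below every ceiling, such as Atp5k, Ndufa11 and Uqcr11, are counted, and the share over measured members alone was not computed. No match of one core overlapped a match of another in these promoters, and 27 of the 77 had at least 1 of the 3. Of the 9 members called higher in Trem2, Cox8a and Atp5h had a match, both to the ETS core. Of the rest, Ndufb9 had no window and the others held none of these letters. A match describes the letters and not a bound site.

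Complex I, the largest group, spread widely. Of its 38 subunit genes 32 were measured, and the median difference was 0.76 for Ccrl2 minus CD74, 0.38 for Ccrl2 minus CD163, -0.39 for Ccrl2 minus Trem2, -0.68 for CD74 minus CD163, -1.43 for CD74 minus Trem2 and -0.95 for CD163 minus Trem2. The medians that involve CD74 rest largely on values under background, and with those raised to the ceiling they were 0.20 for Ccrl2 minus CD74, -0.08 for CD74 minus CD163 and -0.63 for CD74 minus Trem2. In Ccrl2 against Trem2, 7 of 32 (21.9%) were called lower, against 7.92% of all genes, and 0 higher, against 5.43%. After quantile normalization 5 of 32 (15.6%) were called lower there, against 4.23%.

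Among the core subunits that carry flavin or iron-sulphur centres, the order of libraries was not shared. Ndufv1, the subunit that binds NADH and flavin, had 7.28 (Ccrl2), 8.19 (CD74), 6.55 (CD163) and 7.87 (Trem2), and so was highest in CD74. Ndufv2, its partner, had 6.76 (Ccrl2), 4.65 (CD74, below the ceiling), 6.48 (CD163) and 8.55 (Trem2) and was highest in Trem2. These neighbours in the complex therefore had opposite ends of the order in the CD74 library, where Ndufv1 was 3.12-fold above CD163 and Ndufv2 was not above background.

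Ndufs1, the largest iron-sulphur subunit, had 6.66 (Ccrl2), 4.46 (CD74, below the ceiling), 7.06 (CD163) and 7.09 (Trem2). Ndufs3 had 7.50 (Ccrl2), 6.31 (CD74, below the ceiling), 7.20 (CD163) and 8.12 (Trem2). Ndufs7 was above the ceiling in Ccrl2 (5.98) and Trem2 (5.65) and below it in CD74 (5.05) and CD163 (4.96). Ndufs8 had 6.59 in Ccrl2 and 7.72 in Trem2 and lay below the ceiling in CD74 (6.02) and CD163 (5.37). For each of these 4 the CD74 value was under background, so a difference from it is only a bound.

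Accessory subunits ranged from nearly level to widely spread on the deposited scale. Ndufs4, which stabilises the NADH-oxidising arm, had 7.45 (Ccrl2), 7.42 (CD74), 7.40 (CD163) and 7.48 (Trem2). Its range of 0.08 was the narrowest of the 30 members above the ceiling in all 4 libraries, although the arrays as wholes differed. After quantile normalization it had 7.12 (Ccrl2), 8.27 (CD74), 7.78 (CD163) and 7.04 (Trem2), and was called lower in Ccrl2 than in CD74 and higher in CD74 than in Trem2. Ndufa12, another subunit of that arm, had 9.81 (Ccrl2), 6.27 (CD74, below the ceiling), 8.79 (CD163) and 9.38 (Trem2), which made it at least 9.71-fold higher in Ccrl2 than in CD74. It was called lower in CD74 than in each other library on both scales.

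Ndufa8 had 7.32 (Ccrl2), 6.77 (CD74), 7.59 (CD163) and 8.58 (Trem2), and Ndufa3 had 9.69 (Ccrl2), 8.86 (CD74), 8.37 (CD163) and 9.96 (Trem2). Ndufb4b, a close copy of Ndufb4 whose transcripts the probes may not fully separate, had 8.15 (Ccrl2), 6.90 (CD74), 8.02 (CD163) and 8.33 (Trem2), while Ndufb4 itself had 6.93 (Ccrl2), 6.42 (CD74, below the ceiling), 6.54 (CD163) and 8.37 (Trem2). Ndufb8 ran against most members, with its highest value in CD163 (7.93) against 6.74 in Ccrl2, 7.04 in CD74 and 7.10 in Trem2. It was called 2.28-fold lower in Ccrl2 than in CD163.

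Ndufa4, long listed with complex I and since placed in complex IV, had 8.19 (Ccrl2), 5.59 (CD74, below the ceiling), 5.93 (CD163, below the ceiling) and 8.55 (Trem2). It was at least 3.16-fold and at least 3.76-fold higher in Ccrl2 than in those 2 libraries. Its hypoxia-induced relative Ndufa4l2 lay between 4.12 and 4.80 and was below background in all 4. Ndufa10 and Ndufa13 were also low in one of these libraries, with Ndufa10 at 7.44 in Ccrl2 and 5.73, below the ceiling, in CD163, and Ndufa13 at 8.03 in Ccrl2 and 5.63 in CD74, under its ceiling.

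The remaining measured subunits of complex I were Ndufa1, Ndufa2, Ndufa5, Ndufa6, Ndufa9, Ndufb2, Ndufb3, Ndufb5, Ndufb7, Ndufb11, Ndufc1, Ndufs5 and Ndufs6. None of these 13 was called in any pair on the deposited scale, and Ndufa5, Ndufa6 and Ndufc1 were called in pairs with CD74, each higher in CD74, after quantile normalization. Assembly factors, which help build complex I and are not part of it, were mostly at background. Of 8, only Ndufaf4 was above the ceiling in all libraries, at 6.35 (Ccrl2), 6.95 (CD74), 6.80 (CD163) and 6.46 (Trem2), a range of 0.60. After quantile normalization it was called lower in Ccrl2 than in CD74 and higher in CD74 than in Trem2. Ndufaf2, Ndufaf5 and Ndufaf7 passed it in Trem2 alone, at 5.52, 5.66 and 6.62, although the deposited CD74 values of Ndufaf2 (6.19) and Ndufaf5 (6.00) were higher under a higher ceiling.

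Complex II, the succinate dehydrogenase of the citric acid cycle, was measured in Ccrl2 and Trem2 only: all 4 genes lay above the ceiling there and below it in CD74 and CD163. Sdhb, the iron-sulphur subunit, had 8.09 (Ccrl2), 5.41 (CD74, below the ceiling), 6.01 (CD163, below the ceiling) and 8.18 (Trem2), at least 2.95-fold higher in Ccrl2 than in CD74 and at least 3.51-fold higher than in CD163. Sdha, the flavoprotein, had 5.79 (Ccrl2), 4.61 (CD74, below the ceiling), 5.79 (CD163, below the ceiling) and 5.77 (Trem2), and its equal Ccrl2 and CD163 values fell on opposite sides of ceilings of 5.67 and 6.28. Sdhc had 6.07 (Ccrl2), 4.08 (CD74, below the ceiling), 5.48 (CD163, below the ceiling) and 6.01 (Trem2), and Sdhd, the other membrane anchor, had 5.79 (Ccrl2), 4.72 (CD74, below the ceiling), 5.75 (CD163, below the ceiling) and 7.14 (Trem2). Ccrl2 and Trem2 differed by no more than 0.09 log2 units in Sdha, Sdhb and Sdhc, and Sdhd alone was called, lower in Ccrl2.

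Complex III had both large and near-zero differences. Uqcrb, the ubiquinone-binding subunit, had 12.99 (Ccrl2), 10.69 (CD74), 11.21 (CD163) and 13.92 (Trem2), and Uqcrh, the hinge protein, had 9.74 (Ccrl2), 7.72 (CD74), 8.27 (CD163) and 10.63 (Trem2). Both followed the common order and were called in 4 pairs, with Uqcrb 9.38-fold lower in CD74 than in Trem2. Uqcrq had 7.79 (Ccrl2), 8.01 (CD74), 7.68 (CD163) and 7.58 (Trem2), and Uqcr10 had 5.83 (Ccrl2), 6.77 (CD74), 6.62 (CD163) and 5.92 (Trem2). These 2 small subunits were highest in CD74, by less than 2-fold. After quantile normalization both were called lower in Ccrl2 than in CD74, by 1.65 (Uqcrq) and 1.53 (Uqcr10) log2 units in size, and both were called higher in CD74 than in Trem2.

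The core proteins of complex III did not share one order either. Uqcrc1 had 7.41 (Ccrl2), 6.05 (CD74, below the ceiling), 6.51 (CD163) and 7.39 (Trem2). Uqcrc2 had 6.67 (Ccrl2), 6.34 (CD74, below the ceiling), 8.15 (CD163) and 7.17 (Trem2), and was called 2.79-fold lower in Ccrl2 than in CD163. Uqcrfs1, the Rieske iron-sulphur protein, had 6.59 in Ccrl2 and 6.98 in Trem2 and was below the ceiling in CD74 (5.31) and CD163 (4.83). After quantile normalization Uqcrc2 was the 1 member called higher in CD163 than in each other library, against 2.64% of all genes.

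In complex IV, cytochrome c oxidase, the median was 1.42 for Ccrl2 minus CD74, against 0.96 over all genes, and 1.03 for Ccrl2 minus CD163, against 0.69. In each of these pairs 7 of 13 genes (53.8%) were called higher in Ccrl2 and 0 lower. All-gene shares were 32.0% higher and 7.80% lower against CD74, and 28.1% and 5.03% against CD163. After quantile normalization 2 were higher (12.1% of all genes) and 4 lower (20.3%) in Ccrl2 than in CD74, and 2 higher (9.45%) and 1 lower (13.3%) in Ccrl2 than in CD163. Cox4i1, the widely expressed regulatory subunit, had 8.59 (Ccrl2), 7.00 (CD74), 5.56 (CD163, below the ceiling) and 8.47 (Trem2), at least 4.96-fold higher in Ccrl2 than in CD163. Cox7c was 8.88-fold higher in Ccrl2 than in CD163. Cox6c had 9.34 (Ccrl2), 6.72 (CD74), 7.53 (CD163) and 9.43 (Trem2).

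Cox4i1 and Cox7c kept a low CD163 value after quantile normalization, where both were called lower in CD163 than in each other library, with Atp5pb of complex V. Cox5a and Cox5b, peripheral subunits on the matrix side, had 6.87 and 8.43 in Ccrl2, 7.27 and 8.05 in CD74, 6.86 and 7.10 in CD163 and 7.91 and 9.08 in Trem2. Cox7b had 8.23 (Ccrl2), 6.84 (CD74), 7.80 (CD163) and 8.79 (Trem2). Cox7a2l, which helps join complexes III and IV into a supercomplex, had 7.84 in Ccrl2 and 8.47 in Trem2 and was below the ceiling in CD74 (6.33) and CD163 (6.26).

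Cox6b1 was the steadiest gene of complex IV on the deposited scale, with 7.96 (Ccrl2), 7.80 (CD74), 8.11 (CD163) and 8.06 (Trem2). After quantile normalization it had 7.52 (Ccrl2), 8.77 (CD74), 8.58 (CD163) and 7.51 (Trem2) and was called in 4 pairs, lower in Ccrl2 than in CD74 and CD163 and higher in CD74 and CD163 than in Trem2. Cox8a was the least steady on the deposited values, at 8.95 (Ccrl2), 6.46 (CD74, below the ceiling), 8.14 (CD163) and 10.46 (Trem2), a range of 4.0. It was at least 15.2-fold lower in CD74 than in Trem2, the widest gap of any member.

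**Figure D3:**
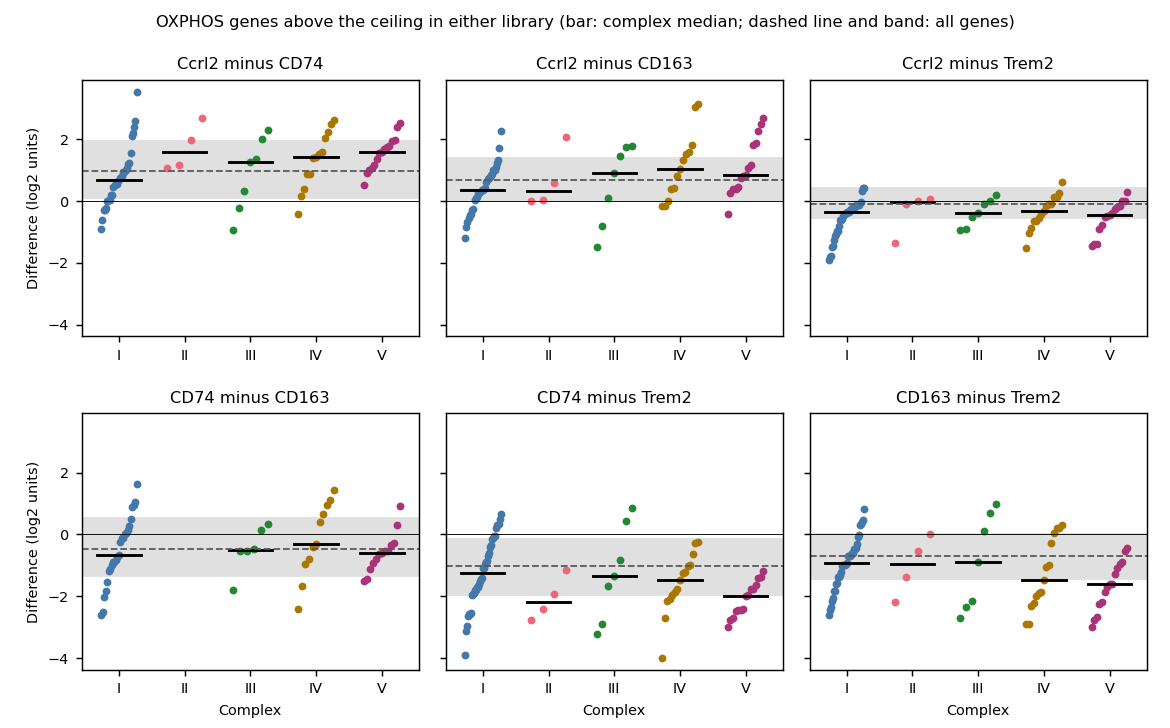
Differences between libraries for members above the ceiling in either library of the pair, in log2 units on the vertical axis, by complex on the horizontal axis (complex I includes its assembly factors). Each point is 1 gene, black bars are complex medians, the dashed line is the median over all genes of that pair and the grey band their middle 50%. In Ccrl2 minus Trem2 the medians of complexes I, III, IV and V lie under the all-gene line of -0.08.

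Complex IV has muscle and other tissue-restricted forms, which are given here beside the cardiomyocyte markers. Cox6a2, the form of heart and skeletal muscle, had 8.24 (Ccrl2), 6.82 (CD74), 7.21 (CD163) and 8.67 (Trem2) and was above the ceiling in all 4. It followed the order of the summed cardiomyocyte markers, which were highest in Trem2, then Ccrl2, CD163 and CD74. That order was not particular to a muscle form. Widely expressed members such as Cox6c, Cox7b, Atp5a1, Atp5b and Uqcrb had it too, as did the summed endothelial markers. Single cardiomyocyte markers did not all share that order, since Myh6 and Actc1 were highest in Ccrl2. Whether heart muscle RNA took part in Cox6a2 was not tested. Its widely expressed partner Cox6a1 had 9.60 (Ccrl2), 8.71 (CD74), 8.06 (CD163) and 9.91 (Trem2), and so differed from it in having the lower of the 2 low values in CD163.

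Cox7a1, the muscle form of its subunit, had 7.02 (Ccrl2), 4.79 (CD74, below the ceiling), 7.19 (CD163) and 6.87 (Trem2). The level was thus similar in 3 libraries and highest in CD163. Cox8b, a muscle form of the smallest subunit, passed the ceiling in Trem2 alone (5.81) and lay just under it in Ccrl2 (5.64). The testis form Cox7b2 passed it in Trem2 alone as well (5.79), with a higher deposited value, 6.01, under the higher ceiling of CD163. Cox4i2, Cox6b2 and Cox8c, known from lung and testis, were below background in all libraries. None of the 13 members called lower in Ccrl2 than in Trem2 was a tissue-restricted form or an assembly factor. Leaving out the 8 tissue-restricted forms and the 8 assembly factors therefore could not change that count. With them left out, 0 were called higher and the median was again -0.37.

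**Figure D4:**
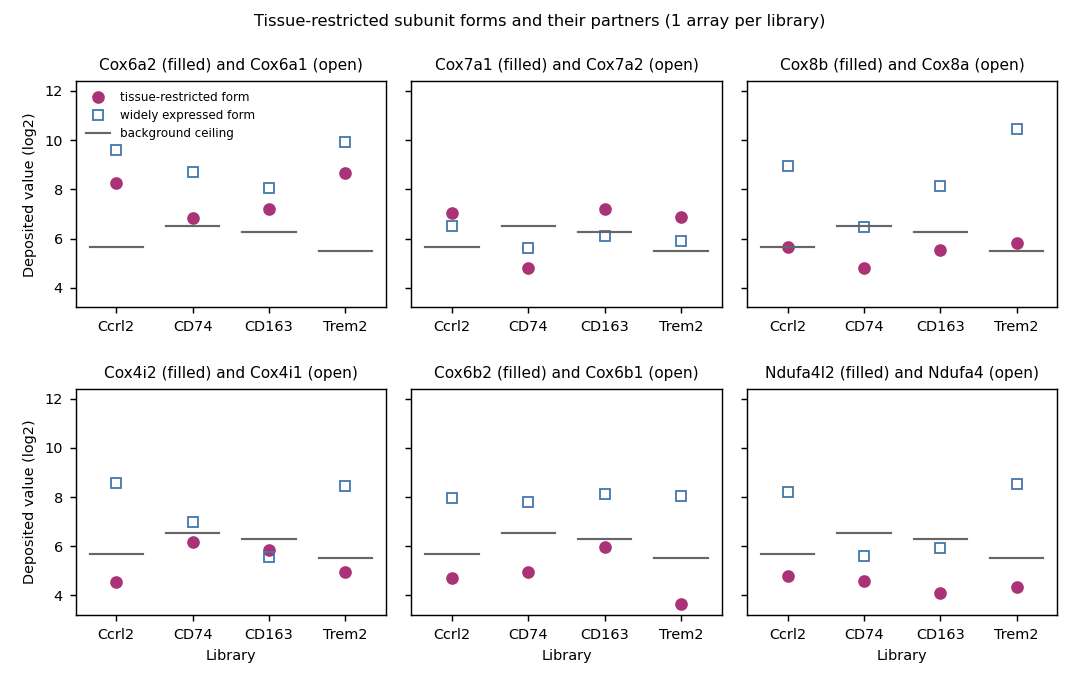
Deposited log2 values (vertical axis) of 6 tissue-restricted forms (filled circles) and their widely expressed partners (open squares) in the 4 libraries (horizontal axis), 1 array each, with grey bars at each library's background ceiling. Cox6a2 is above the ceiling in all 4 libraries and Cox7a1 in all but CD74, while Cox4i2, Cox6b2 and Ndufa4l2 are below it throughout. Different genes have different probes, so circles and squares are not to be compared in height.

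Complex V, the ATP synthase, was lower in CD74 than in Trem2 for all 15 measured genes. Of these 14 (93.3%) were called, against 32.6% of all genes, with a median of -1.99 against -1.01 over all genes. In CD163 against Trem2 all 15 were lower and 11 (73.3%) called, against 27.6% of all genes, with a median of -1.61 against -0.69. In Ccrl2 against Trem2, 3 (20.0%) were called lower, against 7.92%, and 0 higher, against 5.43%, with a median of -0.44 against -0.08. The counts against Trem2 depended on the scale: after quantile normalization 1 of 15 was called lower in CD74 than in Trem2 (10.6% of all genes) and 3 in CD163 than in Trem2 (10.0%), with medians of -0.50 and -0.42. On that scale the CD74 minus Trem2 medians of complexes I, III and IV were -0.70, -0.75 and -0.60. Complex V thus lay under those complexes on the deposited scale only. Complex II, whose CD74 values were all under background, had lower medians than complex V, -2.17 on the deposited scale and -2.06 after quantile normalization.

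In the catalytic head and shaft the deposited CD74 values were the lowest and those of CD163 next. That order changed in part after quantile normalization, where Atp5b (11.36) and Atp5c1 (10.22) were highest in CD163 and Atp5d (9.67) in CD74. Atp5b stayed lowest in CD74 (10.80) on that scale. Atp5a1 stayed highest in Trem2 (11.10) there, with its lowest values in CD163 (10.32) and CD74 (10.59). Atp5b, the catalytic beta subunit, had 11.99 (Ccrl2), 9.47 (CD74), 10.91 (CD163) and 12.18 (Trem2). Atp5a1, the alpha subunit, had 11.68 (Ccrl2), 9.28 (CD74), 9.87 (CD163) and 12.05 (Trem2), and Atp5c1, the central shaft, had 10.52 (Ccrl2), 8.84 (CD74), 9.77 (CD163) and 10.21 (Trem2). The Ccrl2 and Trem2 values of these 3 lay within 1.29-fold of each other, while Atp5a1 was 5.28-fold higher in Ccrl2 than in CD74. Atp5d, of the same shaft, had 9.85 (Ccrl2), 8.49 (CD74), 9.02 (CD163) and 10.11 (Trem2).

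The membrane ring is built from one mature protein encoded by 3 genes, and these differed. Atp5g1 had 8.94 (Ccrl2), 6.96 (CD74), 7.77 (CD163) and 9.38 (Trem2). Atp5g2 had 10.58 (Ccrl2), 9.02 (CD74), 8.71 (CD163) and 11.48 (Trem2), and Atp5g3 had 7.29 (Ccrl2), 5.69 (CD74, below the ceiling), 6.82 (CD163) and 8.67 (Trem2). All 3 were highest in Trem2, and Atp5g3 alone was called against Ccrl2.

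Atp5pb, subunit b of the stalk, had 8.60 in Ccrl2 and 8.60 in Trem2, against 6.84 in CD74 and 5.92, below the ceiling, in CD163. Atp5o, which ties the stalk to the head, had 7.77 in Ccrl2 and 8.26 in Trem2 and was below the ceiling in CD74 (5.81) and CD163 (5.26). Atp5j had 7.40 in both Ccrl2 and Trem2 and was likewise below it in CD74 (5.63) and CD163 (5.14). Atp5j2, a subunit of the membrane part, went another way, with 8.25 (Ccrl2), 7.18 (CD74), 8.68 (CD163) and 9.62 (Trem2). Atp5l, Atp5md and Atp5mpl, small membrane subunits, were highest in Trem2 at 7.86, 8.31 and 7.68 and below the ceiling in CD74.

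The pairs that involve CD74 or CD163 gave more calls, over members and over all genes. In Ccrl2 against CD74, 24 of 69 members (34.8%) were called higher, against 32.0% of all genes, and 0 lower, against 7.80%. In Ccrl2 against CD163, 21 of 70 (30.0%) were higher, against 28.1%, and 2 lower, against 5.03%. In CD74 against CD163, 2 of 55 (Cox7c and Ndufv1) were higher, against 9.98%, and 6 lower (10.9%), against 19.3%. The members' medians in these pairs were 1.08, 0.68 and -0.52, against 0.96, 0.69 and -0.47 over all genes. After quantile normalization the counts were 3 higher and 14 lower in Ccrl2 than in CD74 (12.1% and 20.3% of all genes), 5 and 5 in Ccrl2 against CD163 (9.45% and 13.3%), and 10 and 4 in CD74 against CD163 (21.2% and 15.9%). With this filter the shares of members called were near or under those of all genes on both scales. Under other treatments of dim values the members of Ccrl2 minus CD74 went beyond all genes: the median was 0.76 against 0.26 with dim values at the ceiling, 0.85 against 0.05 with no filter and 0.94 against 0.38 with a filter at the column median. The counts higher in Ccrl2 were then 41 of 93 against 21.2% of all genes with no filter, and 35 of 84 against 28.9% with the column median. Whether these genes differ beyond the array as a whole in that pair thus depended on how dim values were treated.

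Against Trem2 the members went further than the background. In CD74 against Trem2, 39 of 77 (50.6%) were lower, against 32.6% of all genes, and 0 higher, against 7.62%, with a median of -1.62 against -1.01. Only 35 of the 77 were above the ceiling in CD74, so that median rests on values under background, and with dim values at the ceiling it was -1.03 against -0.28. In CD163 against Trem2, 33 of 77 (42.9%) were lower, against 27.6%, and 0 higher, against 6.07%, with a median of -1.01 against -0.69. After quantile normalization the CD163 count was 14 lower (18.2%) and 3 higher (3.90%), against 10.0% and 15.0% of all genes. The CD74 count became 7 lower (9.09%) and 9 higher (11.7%), against 10.6% and 18.1%, so that CD74 no longer had more calls downward than upward. The 3 pairs with Trem2 share that library and are not independent of each other.

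Other genes of mitochondrial respiration were drawn from lists outside the membership rule. Of 17 genes of the tricarboxylic acid cycle and pyruvate entry on the array, 15 were measured in the Ccrl2 and Trem2 pair. Lower in Ccrl2 were 2 (13.3%), against 7.92% of all genes, and 0 were higher, against 5.43%. The median was -0.17 against -0.08 over all genes. The 2 were Mdh2 (7.60 in Ccrl2 against 8.65 in Trem2) and Dlat (6.46 in Ccrl2 against 7.67 in Trem2). Cs, citrate synthase, had 8.35 in both Ccrl2 and Trem2, against 6.51 in CD74 and 6.11 in CD163, below the ceiling in each. In CD74 against Trem2 8 of 15 were lower, against 32.6% of all genes, and 0 higher, against 7.62%. In CD163 against Trem2 8 of 15 were lower, against 27.6%, and 0 higher, against 6.07%. After quantile normalization the CD74 count was 3 higher and 3 lower, against 18.1% and 10.6% of all genes. The CD163 count was then 1 higher and 3 lower, against 15.0% and 10.0%. Neither Mdh2 nor Dlat was called lower in Ccrl2 than in Trem2 on that scale.

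Of 6 measured carriers and channels, 2 were lower in Ccrl2 than in Trem2, against 7.92% of all genes, and 0 higher, against 5.43%. After quantile normalization 0 were lower. The 2 were the phosphate carrier Slc25a3, with 10.44 (Ccrl2), 10.06 (CD74), 8.69 (CD163) and 11.59 (Trem2), and the ADP and ATP exchanger Slc25a5, with 9.67 (Ccrl2), 9.13 (CD74), 9.78 (CD163) and 10.72 (Trem2). Slc25a4, the exchanger form most used in heart and muscle, had 10.45 (Ccrl2), 10.53 (CD74), 9.65 (CD163) and 10.33 (Trem2). Cycs, which encodes cytochrome c, had 9.90 (Ccrl2), 8.32 (CD74), 8.80 (CD163) and 10.51 (Trem2), and with Etfa and Etfdh it was called lower in both CD74 and CD163 than in Trem2. In Ccrl2 against Trem2, Cycs, Etfa and Etfdh were the respiratory chain genes outside the rule that were measured. Of these 3, 0 were called, against 7.92% of all genes lower and 5.43% higher.

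Assembly factors outside the rule were called in Ccrl2 against Trem2 at shares near those of all genes. Of 18 measured in that pair, 1 (5.56%) was lower in Ccrl2 (Timmdc1), against 7.92% of all genes. Another 1 (5.56%) was higher (Ttc19), against 5.43%, and the median was -0.15 against -0.08 over all genes. In CD74 against Trem2, 2 of 17 (11.8%) were lower, against 32.6% of all genes, and 1 (5.88%) higher, against 7.62%. The median there was -0.20 against -1.01 over all genes.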

How the data were processed

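The data were 4 Clariom S mouse arrays, 1 per sorted population. The authors corrected background, normalized and summarised the probe intensities by robust multichip average (RMA) and used GeneSpring, per the labels' protocols, and the range of the deposited values, 2.97 to 19.93, is that of log2 signals. Affymetrix Expression Console is named in the submitters' processing notes. For RMA settings and the probes' genome build, nothing is given in the sources used here. Of 22206 gene probe sets, 19572 had 1 symbol in the platform annotation, 0 several and 2634 none. The probe set with the highest mean over the 4 libraries stood for a gene, giving 19505 genes. All 93 members were in the GRCm38.p6 gene table.

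Groups came from sample titles. Differences and counts past 2-fold were computed for 6 pairs and for each library against the rest, with Python 3.11.15, pandas 2.3.3, numpy 2.4.6 and matplotlib 3.10.9, and the calling rule was tested on simulated data. Genes entered a pair when above the ceiling in either library. Named by rule were core subunits, tissue-restricted forms with partners, Cox7a2l, up to 4 members of widest and 2 of narrowest range per complex among those above all ceilings, and members called against every other library. Members named beyond these, such as Ndufb8, Ndufa10, Ndufa13, Atp5g1, Atp5j and Atp5o, and the single genes named from other lists, were chosen after their values were seen. Members and lists were chosen with earlier results of these data known. Alternatives covered scaling, the filter on dim values, probe sets, the fold, saturation and membership. Leaving out a library was added after seeing the data. Mitochondrially encoded subunits were not analysed here.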

Additional observations from a re-analysis of the deposited data

How the results depend on the processing

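No paired analysis was possible because each group had 1 library. Of 252 values recomputed under alternatives, 187 kept their direction and stayed within 1.5 times (medians within 1.5-fold). They included every value under median centring, averaging of probe sets, leaving out saturated genes and leaving out assembly factors and tissue-restricted forms. Averaging and leaving out saturated genes left the members' own values unchanged by construction, since each member had 1 probe set and 0 were saturated. Agreement under those settings therefore says little. The cause was not tested where values moved, except that a stricter fold or filter calls fewer genes by construction. Percentages in brackets are the shares of all genes called under the same setting. Quantile normalization gave medians of 0.27 for Ccrl2 minus CD74, -0.01 (reversed, against 0.68) for Ccrl2 minus CD163 and -0.67 for CD74 minus Trem2. Raising dim values to the ceiling gave a median of -1.03 for CD74 minus Trem2, against -0.28 over all genes.

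After quantile normalization, counts were 3 higher (12.1%) and 14 lower (20.3%) in Ccrl2 than in CD74, 5 higher (9.45%) and 5 lower (13.3%) in Ccrl2 than in CD163 and 10 higher (21.2%) in CD74 than in CD163. They were 9 higher (18.1%) and 7 lower (10.6%) in CD74 than in Trem2 and 3 higher (15.0%) and 14 lower (10.0%) in CD163 than in Trem2. Against each other library they were 1 higher (8.58%) and 2 lower (5.34%) in CD74, 1 higher (2.64%) and 3 lower (2.36%) in CD163 and 1 higher (0.792%) in Trem2.

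With no filter, counts were 41 higher (21.2%) and 2 lower (13.1%) in Ccrl2 than in CD74, 6 lower (9.54%) in Ccrl2 than in CD163 and 1 higher (5.04%) in Ccrl2 than in Trem2. They were 6 higher (11.6%) and 20 lower (15.4%) in CD74 than in CD163, 3 higher (12.9%) in CD74 than in Trem2 and 2 higher (10.3%) in CD163 than in Trem2. Against each other library they were 14 lower (8.78%) in CD74, 1 higher (2.77%) and 2 lower (2.88%) in CD163 and 1 lower (0.610%) in Trem2.

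With the filter at the column median, counts were 1 lower (9.48%) in Ccrl2 than in CD74 and 4 higher (9.97%) and 13 lower (16.3%) in CD74 than in CD163. They were 1 higher (9.01%) in CD74 than in Trem2. Against each other library they were 10 lower (10.3%) in CD74 and 2 lower (3.23%) in CD163.

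At 1.5-fold, counts were 3 lower (12%) in Ccrl2 than in CD74, 5 lower (12.5%) in Ccrl2 than in CD163 and 1 higher (15.2%) and 25 lower (18.5%) in Ccrl2 than in Trem2. They were 7 higher (18.3%) and 18 lower (29.6%) in CD74 than in CD163, 1 higher (9.79%) in CD74 than in Trem2 and 3 higher (11.7%) in CD163 than in Trem2. Against each other library they were 14 lower (15.0%) in CD74, 2 higher (2.47%) and 5 lower (6.09%) in CD163 and 21 higher (9.68%) in Trem2.

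At 4-fold, counts were 8 higher (15.5%) in Ccrl2 than in CD74, 3 higher (8.38%) and 0 lower (0.406%) in Ccrl2 than in CD163 and 0 lower (1.09%) in Ccrl2 than in Trem2. They were 0 higher (3.22%) and 1 lower (8.54%) in CD74 than in CD163, 15 lower (15.3%) in CD74 than in Trem2 and 12 lower (9.69%) in CD163 than in Trem2. Against each other library they were 1 lower (4.58%) in CD74, 0 lower (0.888%) in CD163 and 0 higher (0.535%) in Trem2.

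Leaving out 1 library at a time gave 0 to 16 members higher in Ccrl2 than in each other library (16 without Trem2, 20.1% of all genes), 5 to 24 lower in CD74 (24 without CD163, 23.7%), 0 to 1 higher in CD163 (1 without Trem2, 1.18%), 1 to 20 lower in CD163 (20 without CD74, 18.6%, and 2 without Ccrl2, 4.48%) and 10 to 29 higher in Trem2 (29 without Ccrl2, 20.3%). Signal over background limits all comparisons with CD74, where 35 of 93 members passed the ceiling.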

Other observations

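A few genes of respiration ran against the order of the complexes. Cyc1, which encodes cytochrome c1 of complex III and falls outside the membership rule, was above background in CD163 alone, at 7.19, against 5.50 in Ccrl2, 6.50 in CD74 and 4.96 in Trem2. It was called lower in Ccrl2 than in CD163. Surf1, an assembly factor of complex IV, had 8.72 (Ccrl2), 9.99 (CD74), 9.95 (CD163) and 8.40 (Trem2), and so was lower in Ccrl2 and Trem2, where most subunits of complex IV were higher.

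Regulators of mitochondrial gene expression had no common direction between Ccrl2 and Trem2. Of 8 measured in Ccrl2 and Trem2, 1 (12.5%) was called higher in Ccrl2, against 5.43% of all genes, and 1 (12.5%) lower, against 7.92%. In CD163 against Trem2, 4 of 8 were called lower and 0 higher, against 27.6% and 6.07% of all genes. In Ccrl2 against CD163, 3 of 7 were called higher and 0 lower, against 28.1% and 5.03%. After quantile normalization 1 of 8 was lower in CD163 than in Trem2 (10.0% of all genes). On that scale 2 of 7 were higher in Ccrl2 than in CD163 (9.45%). The pairs of CD74 with Ccrl2 and with Trem2 had deposited calls in both directions. Gabpa, the DNA-binding subunit of NRF-2, had 10.68 (Ccrl2), 7.12 (CD74), 8.09 (CD163) and 9.26 (Trem2). Tfb2m, a mitochondrial transcription factor, had 5.69 in Ccrl2 and 7.52 in Trem2, and lay below the ceiling in CD74 (6.44) and CD163 (5.82). Nrf1 had 7.93 (Ccrl2), 5.91 (CD74, below the ceiling), 6.04 (CD163, below the ceiling) and 8.07 (Trem2). Tfb1m, a methyltransferase of mitochondrial ribosomal RNA, passed the ceiling in CD74 alone, at 6.98. Ppargc1a, the coactivator best known for raising mitochondrial number, was at most 5.51, in Trem2, and did not pass background in any library.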
